A study of Mus musculus with 12 samples.

Results

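The collagen genes were measured in mouse embryonic fibroblasts (MEFs), connective-tissue cells grown from mouse embryos, as every probe set whose only gene symbol is Col, a number, the letter a and a number. The rule found 82 probe sets for 42 genes, among 45037 probe sets for 18194 single gene symbols on the array. The 12 arrays compared wild-type cells with cells carrying a kinase-dead IRAK4, the kinase that relays signals from the interleukin-1 (IL-1) receptor. Each genotype had cells cultured for 4 h without stimulation, for 1 h with IL-1b at 1 ng/ml, and for 4 h with IL-1b at 1 ng/ml, with 2 arrays in each of these 6 groups. The unstimulated 4 h culture was the control for both IL-1b times, so the 1 h and 4 h responses of a genotype share their control arrays and the 1 h response also differs in culture time. The labels name neither the IRAK4 allele nor how many embryos or cell lines each genotype came from, so genotype and cell line cannot be told apart. The replicates are called biological but are not tied to separate cultures or animals, and p-values therefore measure only the spread between these samples.

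Collagens are triple helices built from alpha chains, and each gene encodes 1 chain. Fibrillar collagens (types I, II, III, V, XI, XXIV and XXVII) form the tensile fibrils of connective tissue, type IV forms the sheet of basement membranes, type VI forms beaded filaments around cells, and type VII forms the fibrils that anchor epithelia. Fibril-associated collagens with interrupted helices (FACITs) decorate fibril surfaces, short-chain and multiplexin collagens lie in specialised or vascular matrices, and transmembrane collagens sit in the plasma membrane. Fibroblasts are the main source of the fibrillar and beaded-filament collagens, and IL-1 is known to raise matrix-degrading enzymes in them.

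Signals are linear MAS5 values in arbitrary units, scaled so that the mean after trimming 2% from each end was 150 on every array. The median signal ran from 23 to 28.3 over the 12 arrays, and the correlation of the 2 arrays of a group ran from 0.967 to 0.974. The actin 3'/5' signal ratio, a measure of RNA and labelling quality, was 2.85 ± 0.0178 (SD, n = 2) in unstimulated kinase-dead cells and had means of 2.36 to 2.49 in the other 5 groups. The title of the first unstimulated wild-type array lacks a genotype, and the array was placed by the stated design of 6 arrays per genotype. Probe signals do not read kinase activity, so the genotype label was not checked on the arrays. All 10 fibroblast markers examined were above the filter, and vimentin (Vim) had a signal between 5489 and 6859 on every array.

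A gene was tested where a probe set reached a signal of 25.5 on at least 2 arrays, and its brightest passing probe set represented it. Of the collagens, 33 genes (54 probe sets) were tested. The tested genes comprised 10 of 11 fibrillar, 5 of 6 basement membrane, 3 of 5 beaded-filament, 3 of 3 short-chain, 1 of 1 anchoring-fibril, 7 of 9 FACIT, 2 of 2 multiplexin and 2 of 4 transmembrane genes. The 9 genes that were not tested were Col4a6, Col6a4, Col6a5, Col9a2, Col9a3, Col11a2, Col13a1, Col17a1 and Col26a1, whose 14 probe sets had signals between 0.4 and 31.1. At the edge of the filter, the second-highest signal was 24.5 for probe sets of Col13a1 and Col14a1, just outside, and 26.3 for a Col19a1 probe set, just inside. Col9a1 passed only through kinase-dead arrays, and Col4a3 and Col4a4 only through wild-type arrays, meaning that fewer than 2 arrays of the other genotype reached 25.5. Passing through only 1 genotype favours genes that are higher there, although it does not force a call. The genotype call of such a gene is therefore given as a description. In bulk samples such as these, fewer cells of a type and less RNA per cell cannot be told apart.

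Collagen genes were both higher and lower in kinase-dead cells. Averaged over the 3 conditions, 8 of the 33 tested genes were higher in kinase-dead cells, beside 18.2% of all 12456 genes tested, and 7 were lower, beside 13.6%. All 3 tested chains of collagen VI were lower, both major chains of basement membrane collagen IV were higher, all 3 chains of fibril-nucleating collagen V were lower, and the FACIT chain Col14a1 was 10.0-fold higher by mean signal. The chains of collagens I and III, the bulk collagens of connective tissue, did not pass the test in their brightest probe sets. Called means an adjusted p under 0.05 in limma, and differences are given on the log2 scale of signal + 8, which understates the change of dim genes. In either direction 15 of 33 collagen genes were called, beside 31.8% of all genes, and 6 of 33 differed by at least 1 on this scale, beside 4.98% of all genes. Among the 30 collagens that reached 25.5 on at least 2 arrays of each genotype, 7 were higher, 7 lower and 5 differed by at least 1. Among all 10972 genes that did so, 33.1% were called and 3.94% differed by at least 1. The median difference over the 33 collagens was -0.05, and over all genes it was 0.03. For 12 of the 33 tested collagens (36.4%) the 6 wild-type and 6 kinase-dead arrays did not overlap, as was so for 10.2% of all genes tested. These 12 were all called, and the called genes with overlap were Col5a2, Col19a1 and Col27a1.

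**Figure D1:**
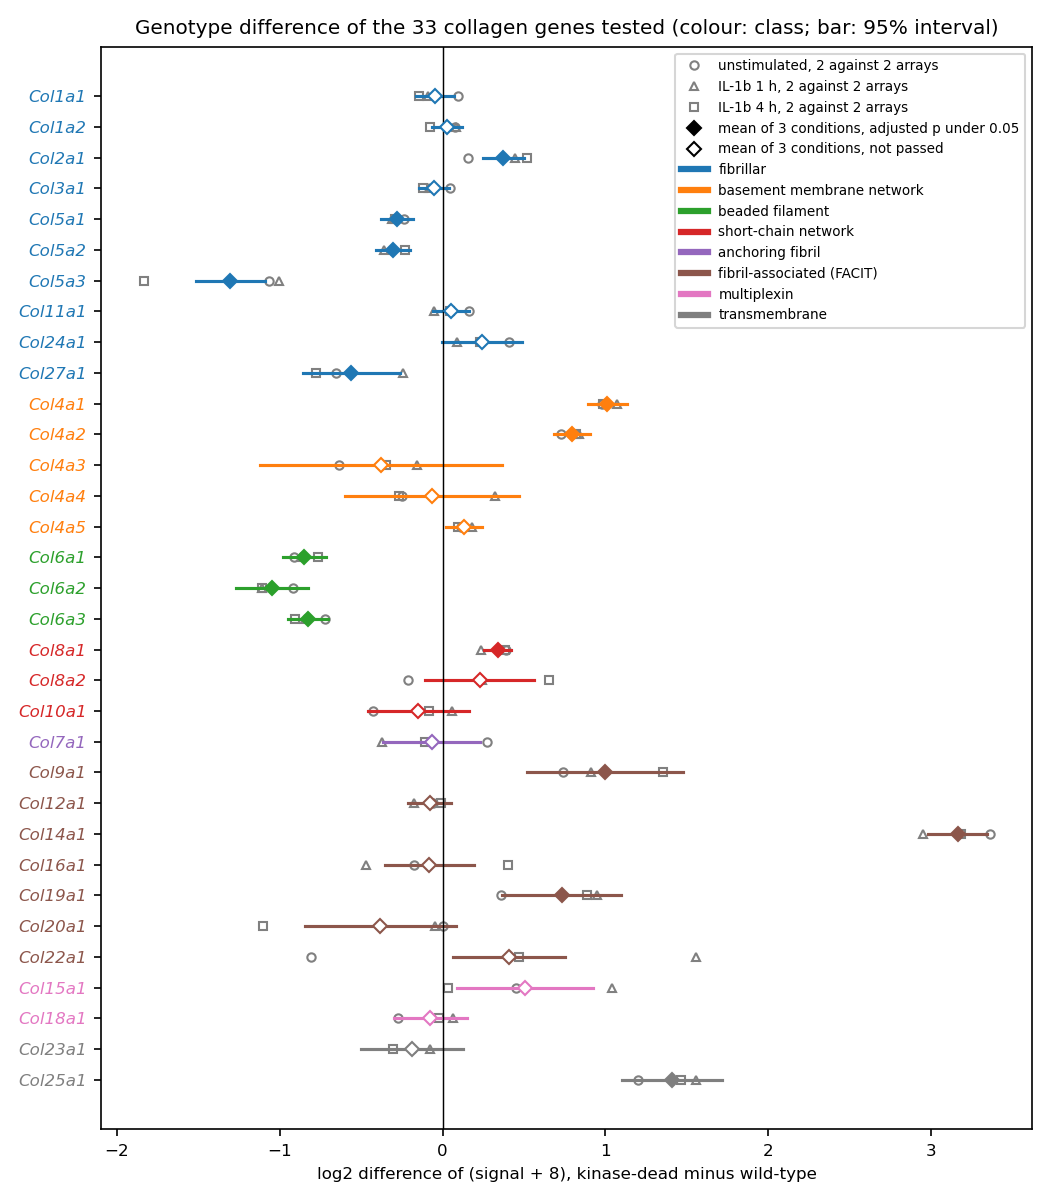
Log2 difference of (signal + 8) between kinase-dead and wild-type cells (horizontal axis) for the 33 tested collagen genes, coloured by class: diamonds are the mean of the 3 conditions with the 95% interval, filled where adjusted p was under 0.05, and grey symbols are the single conditions. The 3 collagen VI genes lie left of zero between -1.05 and -0.82, Col4a1 and Col4a2 lie at 1.01 and 0.80, and Col14a1 stands farthest right at 3.17.

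Collagen VI is assembled from 3 different chains. Because the genes for these chains moved together, the promoter windows of Col6a1, Col6a2 and Col6a3 are shown, each running from 250 bases before to 50 bases after the annotated start (RefSeq, GRCm38.p6, all on the minus strand, read 5′ to 3′). The windows are chr10:76725995-76726294 for Col6a1, chr10:76623355-76623654 for Col6a2 and chr1:90843922-90844221 for Col6a3. Capitals mark matches on either strand to the CCAAT box (CCAAT), the GC box (GGGCGG), the AP-1 site (TGACTCA), the TATA box (TATAAA) and the NF-kB consensus. Col6a2 has 2 entries in the table, and the first is printed.
Col6a1: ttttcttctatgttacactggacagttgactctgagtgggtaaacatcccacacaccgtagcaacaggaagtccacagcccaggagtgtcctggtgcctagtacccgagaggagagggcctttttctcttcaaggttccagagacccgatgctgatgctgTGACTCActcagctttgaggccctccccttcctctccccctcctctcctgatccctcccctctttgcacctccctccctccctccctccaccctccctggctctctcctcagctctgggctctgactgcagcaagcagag
Col6a2: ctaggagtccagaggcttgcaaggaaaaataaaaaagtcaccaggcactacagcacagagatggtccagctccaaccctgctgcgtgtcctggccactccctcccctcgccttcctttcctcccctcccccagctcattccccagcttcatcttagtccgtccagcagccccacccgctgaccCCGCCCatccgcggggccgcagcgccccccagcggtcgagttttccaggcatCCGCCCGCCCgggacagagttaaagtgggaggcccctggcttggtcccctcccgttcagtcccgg
Col6a3: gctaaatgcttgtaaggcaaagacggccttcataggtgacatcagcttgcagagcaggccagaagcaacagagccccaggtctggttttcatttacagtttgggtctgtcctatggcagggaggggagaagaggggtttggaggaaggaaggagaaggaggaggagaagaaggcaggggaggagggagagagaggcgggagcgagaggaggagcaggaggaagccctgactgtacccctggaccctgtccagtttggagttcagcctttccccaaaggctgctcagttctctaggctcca
The Col6a1 window held 1 AP-1 match, which 5.20% of all 32851 promoter windows hold. The Col6a2 window held 3 GC box matches, of which a pair overlap, and 35.7% of all windows hold at least 1. The Col6a3 window held none of the 5 motifs. No motif was common to the 3 windows.

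Col6a1 encodes the first of these chains, and its signal was 1341, 1754 and 1912 (lowest, median and highest) on the 6 wild-type arrays against 867, 928 and 1028 on the 6 kinase-dead arrays. Col6a2, the neighbouring gene on chromosome 10, had 878, 1033 and 1480 against 421, 510 and 706. Col6a3, the long chain encoded on chromosome 1, had 1166, 1256 and 1374 against 608, 706 and 791. Every wild-type array was above every kinase-dead array for each of the 3 genes. The differences were -0.85 ± 0.06 (SE) for Col6a1, -1.05 ± 0.10 for Col6a2 and -0.82 ± 0.06 for Col6a3, with adjusted p = 9.79e-09, 4.97e-07 and 5.70e-09. The wild-type mean was thus 1.82, 2.09 and 1.78 times the kinase-dead mean. The second Col6a2 probe set gave -1.06. The unstimulated wild-type arrays differed most for Col6a2, at 1480 and 889. Its difference among unstimulated cells, -0.92, was -0.56 without the first wild-type array and missed the call without the first kinase-dead array (adjusted p = 0.0523).

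Collagen IV chains form the network of basement membranes. Col4a1 and Col4a2 encode the chains of its most widespread form and are known as a gene pair transcribed in opposite directions, so their windows are shown together (RefSeq, GRCm38.p6), at chr8:11312777-11313076 on the minus strand and chr8:11312555-11312854 on the plus strand.
Col4a1: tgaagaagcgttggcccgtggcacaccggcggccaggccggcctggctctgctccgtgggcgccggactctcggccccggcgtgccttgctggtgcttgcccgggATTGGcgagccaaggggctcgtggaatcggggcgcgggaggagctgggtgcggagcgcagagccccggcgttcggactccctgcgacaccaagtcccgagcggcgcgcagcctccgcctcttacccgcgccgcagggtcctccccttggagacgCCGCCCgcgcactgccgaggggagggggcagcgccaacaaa
Col4a2: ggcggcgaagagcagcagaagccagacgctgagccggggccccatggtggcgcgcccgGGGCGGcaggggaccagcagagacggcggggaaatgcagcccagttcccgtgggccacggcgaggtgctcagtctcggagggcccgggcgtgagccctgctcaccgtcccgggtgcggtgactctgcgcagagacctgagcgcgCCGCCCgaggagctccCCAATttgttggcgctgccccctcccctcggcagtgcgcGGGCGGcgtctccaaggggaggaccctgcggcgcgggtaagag
The annotated starts lie 21 bases apart and the windows share 78 bases, chr8:11312777-11312854. Capitals mark the same motifs as for collagen VI. A GC box at chr8:11312812-11312817 is the only match in the Col4a1 window of that kind and is 1 of 3 in the Col4a2 window, read from the opposite strand. Each window also held 1 CCAAT match, on separate bases, and 37.4% of all windows hold at least 1. Neither held a match to the TATA box, AP-1 or NF-kB motif.

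Col4a1 had a signal of 1084, 1185 and 1479 (lowest, median and highest) on the wild-type arrays and of 2285, 2367 and 2737 on the kinase-dead arrays. Col4a2 had 1377, 1461 and 1879 on the wild-type arrays and 2485, 2574 and 2964 on the kinase-dead arrays. The genotypes did not overlap for either gene. The differences were 1.01 ± 0.06 for Col4a1 (2.02 times by mean signal, adjusted p = 2.15e-10) and 0.80 ± 0.05 for Col4a2 (1.73 times, adjusted p = 2.00e-09), and the other Col4a1 probe set gave 0.97. Col4a5, an X-linked chain of other basement membranes, was bright in both genotypes and differed by 0.13 (95% interval 0.02 to 0.24, adjusted p = 0.0653). Col4a3 and Col4a4, the chains of kidney and other specialised basement membranes, stayed at signals of 1.5 to 39.5 and did not pass.

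Among the fibrillar chains, the most abundant collagens of connective tissue showed little difference. Col1a1 and Col1a2, the chains of collagen I, differed by -0.05 (95% interval -0.16 to 0.07) and 0.03 (-0.06 to 0.12), with overlapping genotypes. Col3a1, the collagen III chain, differed by -0.05 (-0.15 to 0.04) in its brighter probe set, and its other probe set was called at -0.17 (adjusted p = 0.0037 over all 27086 probe sets, of which 26.5% were called). It was the only one of 16 collagen genes with several tested probe sets in which probe sets were called differently: 8 genes had all of them called in 1 direction and 7 had none called. The 8 include Col14a1 and Col19a1, whose dimmer probe sets passed the filter only through kinase-dead arrays. The signs of the Col1a1 and Col1a2 values depended on single arrays (0.0035 for Col1a1 without the first unstimulated wild-type array, -0.0023 for Col1a2 without the first 1 h wild-type array).

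Collagen V, which nucleates collagen I fibrils and sets their width, was lower in kinase-dead cells in all 3 chains. Col5a1 had a signal of 1952, 2139 and 2365 (lowest, median and highest) in wild-type and 1691, 1744 and 1874 in kinase-dead cells, without overlap, a difference of -0.28 ± 0.05 (adjusted p = 0.000121). Col5a2 had 3896, 4127 and 4512 against 2957, 3384 and 4014, a difference of -0.30 ± 0.05 (adjusted p = 0.000123), and its highest kinase-dead array was above its lowest wild-type array. Col5a3, a chain of more restricted tissue distribution, had 178.6, 223 and 434 against 84.1, 97.8 and 119, without overlap, a difference of -1.30 ± 0.10 (adjusted p = 1.72e-08). Of the other fibrillar genes, Col27a1, a chain found in cartilage, was lower by -0.56 ± 0.14 (adjusted p = 0.00506), with -1.18 in its second probe set. Col2a1, the main collagen of cartilage, was higher by 0.37 ± 0.06 (adjusted p = 0.000105), with 318, 353 and 441 in wild-type and 460, 481 and 494 in kinase-dead cells. The gap was narrowest among unstimulated cells, where Col2a1 was not called (means of 438 and 489). It was wider at 1 h (353 and 483) and at 4 h (319 and 461), as the wild-type signal was lower with IL-1b. Col11a1 and Col24a1 did not pass.

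The widest difference among all 33 genes was that of Col14a1, a FACIT that binds to collagen I fibrils. Its signals were 59.8 and 64.2 in unstimulated wild-type cells, 75.1 and 65.9 at 1 h and 63.0 and 59.8 at 4 h. In kinase-dead cells they were 713.9 and 708.5 unstimulated, 525.4 and 679.0 at 1 h and 578.1 and 673.3 at 4 h. The lowest kinase-dead array was far above the highest wild-type array, and the difference was 3.17 ± 0.09 (95% interval 2.98 to 3.35, adjusted p = 3.23e-14). The second tested probe set gave 2.20, but it reached 25.5 on 6 kinase-dead arrays and only 1 wild-type array and so passed the filter only through kinase-dead cells. The remaining probe set did not pass the filter, with signals up to 25.4. The RefSeq promoter table has no entry for Col14a1.

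Dimmer genes made up the other calls. Col25a1, a transmembrane collagen first known from the brain, had a signal of 16.0, 28.5 and 38.1 (lowest, median and highest) in wild-type and 61.5, 85.2 and 112 in kinase-dead cells, a difference of 1.41 ± 0.15 (adjusted p = 7.34e-07) without overlap. Over the alternative fits this value was as low as 0.98. A second Col25a1 probe set leaned the other way, with a kinase-dead mean 0.46 times the wild-type mean. It did not pass the filter, with signals up to 20.2. The FACIT chain Col9a1, found mainly in cartilage, had 4.7, 12.6 and 18.4 against 23.3, 32 and 34.4, a difference of 1.00 ± 0.23 that shrank to 0.52 with a pseudocount of 32. It reached 25.5 on 5 kinase-dead arrays and 0 wild-type arrays, so it entered the test only through the genotype where it is high. The other Col9a1 probe set did not pass the filter, with signals up to 16.1 and a kinase-dead mean 0.87 times the wild-type mean. The FACIT chain Col19a1 had 14.8, 24.95 and 35.1 against 34.6, 44.6 and 54.6, a difference of 0.73 ± 0.17 (0.46 with that pseudocount). Its other probe sets gave 1.03 and 1.35, but both passed the filter only through kinase-dead arrays and do not stand as separate support. Col9a1 and Col19a1 lie close to the median signal of an array. Col8a1, the widespread short chain, was bright in both genotypes and higher by 0.34 ± 0.04 (adjusted p = 3.17e-06), without overlap. The remaining FACIT, multiplexin, short-chain, anchoring-fibril and transmembrane genes did not pass, among them Col12a1, Col15a1, Col18a1 and Col7a1.

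**Figure D2:**
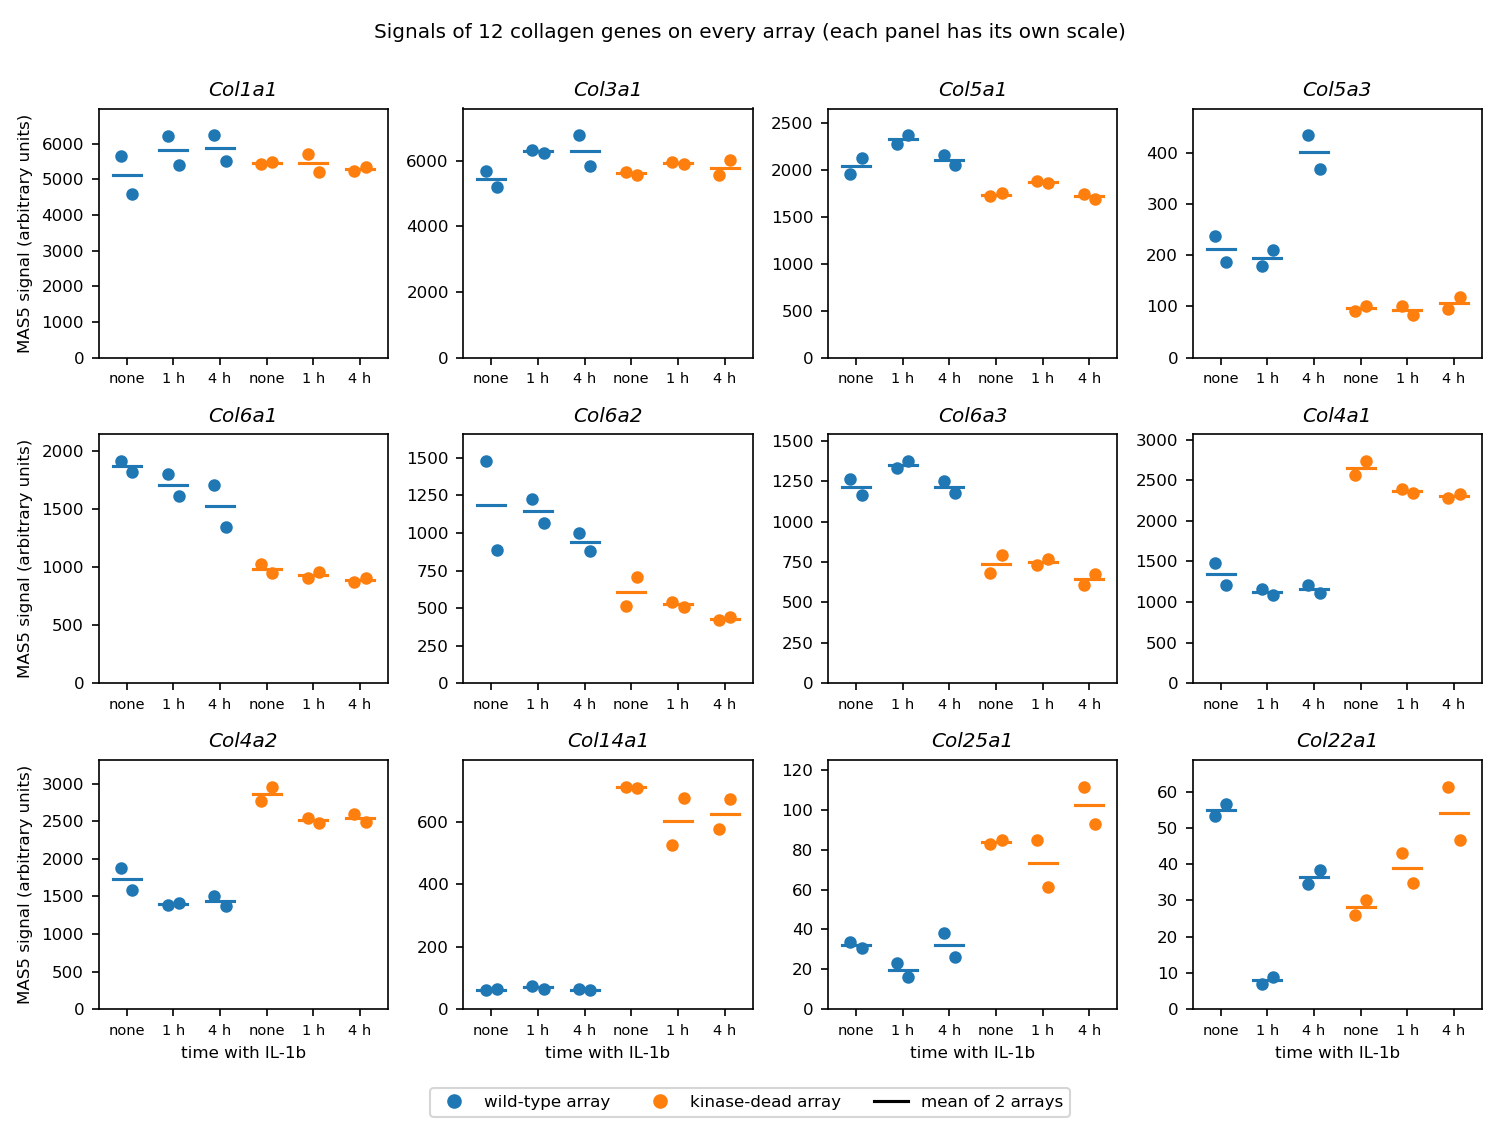
MAS5 signal in arbitrary units (vertical axis, from 0, scaled separately in each panel) of 12 collagen genes on each of the 12 arrays, by genotype and time with IL-1b; points are arrays and lines the mean of 2 arrays. Col6a1, Col6a2, Col6a3 and Col5a3 are lower and Col4a1, Col4a2, Col14a1 and Col25a1 higher on all kinase-dead arrays, while Col1a1 and Col3a1 overlap. Col5a3 rises at 4 h and Col22a1 drops at 1 h in wild-type cells.

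The genotype pattern was present in each condition. Among unstimulated cells 5 collagens were higher and 5 lower, beside 14.3% of all genes called in either direction, and the call of Col5a2 was lost without the first wild-type or either kinase-dead array of that condition (adjusted p = 0.0874 to 0.110). After 1 h of IL-1b 8 were higher and 6 lower, beside 13.3%, and after 4 h 8 were higher and 7 lower, beside 23%. All 15 genes called over the mean had 1 sign in the 3 conditions. They were chosen by the mean of these same conditions, which favours 1 sign, so this is given as a description. Of the 15, 9 were called in each condition by itself: Col4a1, Col4a2, Col5a3, Col6a1, Col6a2, Col6a3, Col8a1, Col14a1 and Col25a1. Across the 33 collagens, the differences of 2 conditions correlated with Pearson's r of 0.81 to 0.88, and over all genes of 0.59 to 0.64. Over so few genes r leans on Col14a1, which differed by 3.36 among unstimulated cells, beside 1.20 for Col25a1. The value without Col14a1 was not computed, so the 2 ranges do not set collagens apart. The conditions share no arrays but share cell lines, probe sets and scaling. Without the unstimulated arrays, where the actin ratio of kinase-dead cells was higher, 16 collagens were called in place of 15.

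After IL-1b limma called few collagens in wild-type cells, and with 33 genes these counts do not set collagens apart from all genes. At 1 h no gene was higher and 1 was lower of 33, beside 7.47% of all genes called, and at 4 h 1 was higher and 1 lower, beside 12.1%. The median absolute difference over the collagens was 0.19 at 1 h and 0.21 at 4 h, and over all genes it was 0.22 and 0.24.

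Col5a3 was the collagen that rose. Its wild-type signals were 237.1 and 187.1 in unstimulated cells, 178.6 and 209.7 at 1 h and 434.1 and 367.4 at 4 h. Both 4 h arrays were above all 4 other wild-type arrays. The difference at 4 h was 0.90 ± 0.17 (adjusted p = 0.00225), and between 4 h and 1 h it was 1.02 (adjusted p = 0.00048), where 2 of 33 collagens rose and 0 fell, beside 19% of all genes called. A second Col5a3 probe set did not pass the filter, with signals up to 24.4.

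Col22a1, a FACIT of tissue junctions such as muscle and tendon, was the collagen that fell at 1 h. Its wild-type signals were 53.4 and 56.6 in unstimulated cells, 7.0 and 8.9 at 1 h and 34.6 and 38.4 at 4 h. Both 1 h arrays were below the other wild-type arrays, and all its signals were dim. The difference was -1.98 ± 0.28 at 1 h (adjusted p = 0.000242) and 1.48 between 4 h and 1 h (adjusted p = 0.00118). With a pseudocount of 32 these were -1.12 and 0.78. Only 1 of 3 Col22a1 probe sets passed the filter, and the others did not show a clear fall at 1 h. The first, with signals up to 23.6, had 19.5 and 0.8 in unstimulated wild-type cells and 3.9 and 16.4 at 1 h. Its mean was 10.15 in both groups. The second, with signals up to 28.8, had 11.4 and 28.8 against 2.5 and 18.0, which overlap.

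Col2a1 fell by 4 h in wild-type cells, from 440.7 and 434.8 to 318.1 and 320.3, with 360.3 and 346.3 at 1 h. The difference of -0.45 ± 0.10 (adjusted p = 0.00884) was no longer called without the first 4 h array (adjusted p = 0.0506), in a fit of only the compared arrays (0.0926) or with median centring (0.0652). The counts of called collagens depended on the controls. Without the first unstimulated wild-type array they were 3 at 1 h and 6 at 4 h, and without the second they were 4 and 6. These sets differed: at both times Col1a1 and Col3a1 were added without the first array, and Col4a1, Col4a2 and Col12a1 without the second.

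**Figure D3:**
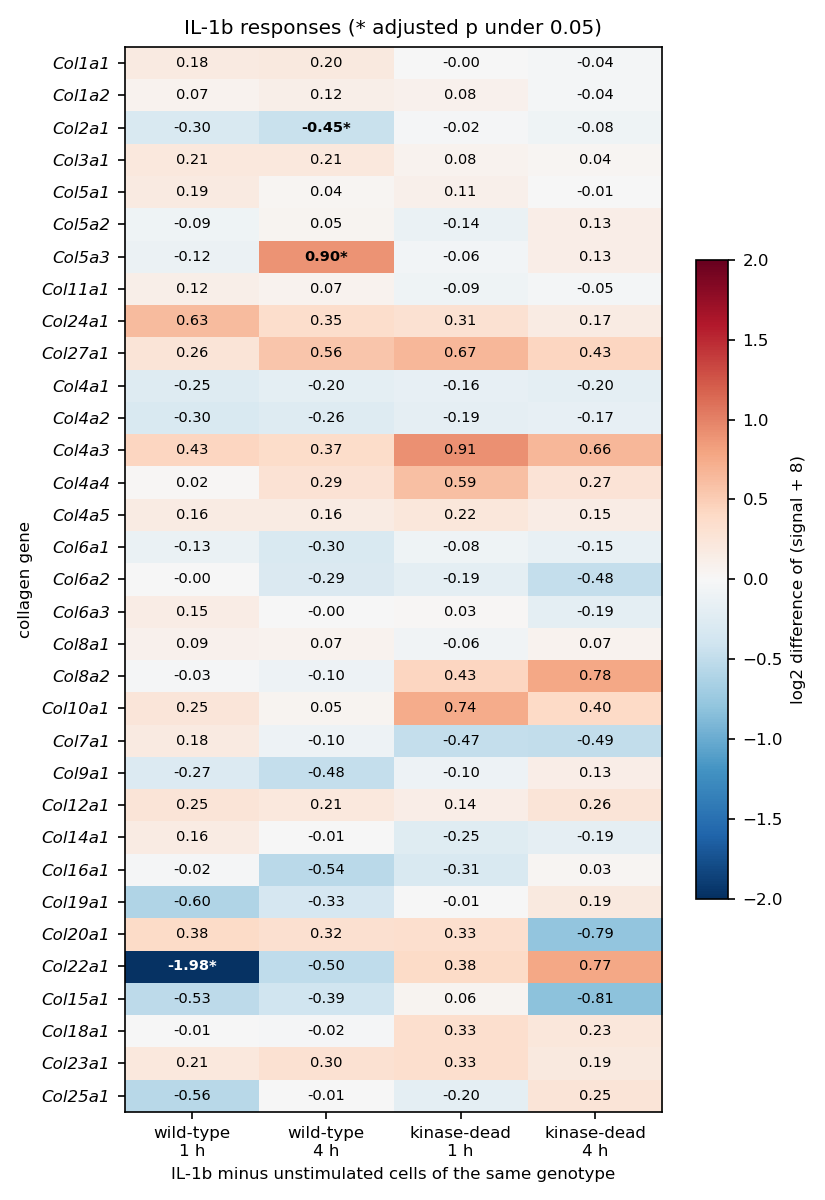
Log2 difference of (signal + 8) between IL-1b-treated and unstimulated cells of the same genotype for the 33 tested collagen genes (rows), with each value printed, colour from blue (lower) to red (higher) and an asterisk where adjusted p was under 0.05. Asterisks stand on Col22a1 at 1 h (-1.98) and on Col2a1 (-0.45) and Col5a3 (0.90) at 4 h, all in wild-type cells.

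In kinase-dead cells limma called 0 collagens at 1 h, beside 3.27% of all genes, 0 at 4 h, beside 0.618%, and 0 between the times, beside 4.08%. At an unadjusted p under 0.05 the counts were 3, 5 and 4, and no other tool was run. Without the second unstimulated wild-type array, which enters only through the shared estimate of spread, Col27a1 was called at 1 h. Without either unstimulated wild-type array, Col8a2 and Col12a1 were called at 4 h and Col5a2 between the times. Col5a3 signals in kinase-dead cells were 91.7 and 101.4 unstimulated, 101.5 and 84.1 at 1 h and 94.2 and 119.2 at 4 h. The 4 h arrays overlapped the unstimulated arrays, and the 4 h difference was 0.13.

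The difference between the genotypes' responses was tested directly. At 1 h 1 of 33 collagens was called, beside 0.49% of all genes. This was Col22a1, whose kinase-dead signals were 26.1 and 30.1 unstimulated, 43.2 and 34.7 at 1 h and 61.4 and 46.7 at 4 h, with a response higher by 2.36 ± 0.40 than in wild-type cells (adjusted p = 0.00705). With a pseudocount of 32 the value was 1.36, and without the first 1 h kinase-dead array the call was lost (adjusted p = 0.0607). At 4 h limma called 0 collagens, beside 3.03% of all genes, and 4 had an unadjusted p under 0.05. The smaller Col5a3 response of kinase-dead cells at 4 h, by -0.77 ± 0.24 (95% interval -1.29 to -0.25), did not pass the adjustment (adjusted p = 0.109). Without the first unstimulated wild-type array it did (-0.94, adjusted p = 0.0454), as did Col8a2.

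Genes that act on or with collagens were listed by role and compared in the same fit. The genotype counts of each list stand beside 18.2% of all genes higher and 13.6% lower. Of 28 tested genes for procollagen processing and crosslinking, 3 were higher and 8 lower in kinase-dead cells over the mean of the conditions. Plod2, which hydroxylates lysines in the collagen ends that are crosslinked, was higher by 1.00 ± 0.07, and P3h2, a prolyl 3-hydroxylase, by 0.95 ± 0.11. Pcolce2, an enhancer of propeptide removal, was lower by -1.49 ± 0.20 (-0.82 with a pseudocount of 32, at signals under 50, and tested only through wild-type arrays), and P4ha2, a prolyl 4-hydroxylase chain, by -0.60 ± 0.10. The list moved in both directions. Without Pcolce2, 10 of 27 genes (37%) were called, near the 33.1% of all genes that passed through both genotypes.

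Of 20 tested fibril-associated matrix proteins, 3 were higher and 11 lower. The widest falls were in 3 small leucine-rich proteoglycans, a family that coats fibrils: Lum at -2.64 ± 0.11, Prelp at -1.97 ± 0.14 and Kera at -2.17 ± 0.27. The family did not move together. Its members Fmod (-0.38) and Podn (-1.15) were also lower, but Ogn was higher (0.26). Dcn (-0.15), Bgn (-0.03) and Aspn (-0.11) were not called. The group means of Kera were 26.1 to 39.8 in wild-type and 0.5 to 1.3 in kinase-dead cells, so its value depends on the pseudocount (-0.97 with 32). Kera and the proteoglycan Podn passed the filter only through wild-type arrays, and without them 3 of 18 genes were higher and 9 lower. Elastin (Eln), the elastic fibre protein, was higher by 1.46 ± 0.08.

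Of 14 tested partners of collagen IV in basement membranes, 5 were higher and 2 lower. The laminin chains Lamb3 and Lamc3 passed the filter only through kinase-dead arrays and were not called. Without them 7 of 12 genes (58.3%) were called. The laminin chain Lama2 was higher by 0.85 ± 0.10, the laminin chain Lama5 by 0.46 ± 0.15 and the proteoglycan Agrn by 0.30 ± 0.06, while the laminin chain Lama4 was lower by -1.39 ± 0.09. Lama5 lost its call without any 1 of 6 arrays (adjusted p up to 0.101). Of 8 tested receptors 3 were higher and 0 lower, a share (37.5%) near the 33.1% of all genes that passed through both genotypes. Itga1, the integrin chain that binds collagen IV and other collagens, was higher by 0.77 ± 0.07, the uptake receptor Mrc2 by 0.27 ± 0.08 and the collagen-activated kinase Ddr1 by 0.16 ± 0.05. Mrc2 lost its call without either of 2 arrays (adjusted p up to 0.0524) and Ddr1 without any 1 of 8 (up to 0.106).

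Of 11 tested collagen-degrading enzymes 3 were higher and 5 lower. The collagenase Mmp13, which cuts fibrillar collagens, had group means of 258, 446 and 1262 in unstimulated, 1 h and 4 h wild-type cells and of 18.7, 19.3 and 22.2 in kinase-dead cells, a genotype difference of -4.26 ± 0.11. The gelatinase Mmp9 had 83.5, 98.5 and 508 against 34.6, 26.7 and 40.1, a difference of -2.07 ± 0.15. The cysteine protease Ctsk was lower by -0.78 ± 0.09, and the membrane-type protease Mmp16 was higher by 1.31 ± 0.09. Mmp13 reached 25.5 on 0 kinase-dead arrays and was tested only through wild-type arrays. Without Mmp13, 3 of 10 enzymes were higher and 4 lower (70% called). Whole lists are read against the 31.8% of all genes called. Lists without genes that passed through only 1 genotype are read against 33.1%.

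Over the 5 lists together, 10 of 81 tested genes (12.3%) were called at 4 h of IL-1b in wild-type cells, beside 12.1% of all genes, and 3 of 81 (3.7%) at 1 h, beside 7.47%. Both shares were near or below those of all genes. At 4 h Mmp9 rose by 2.51 ± 0.25 (adjusted p = 3.19e-06) and Mmp13 by 2.26 ± 0.19 (adjusted p = 2.81e-07), and both were called under each alternative fit tried. The processing genes Tll1, P4ha3 and Crtap were lower at 4 h. Of fibril-associated proteins Lum and Thbs1 were higher and Eln lower, and of the basement membrane list Lamc1 was higher and Lama5 lower. Each of these 8 genes lost its call without at least 1 of the 4 unstimulated and 4 h wild-type arrays (adjusted p of the lost calls 0.0501 to 0.242). No receptor was called. At 1 h the only calls were Lama4 (1.05), Mmp13 (0.78) and the matrix protein Tnc (-0.34).

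**Figure D4:**
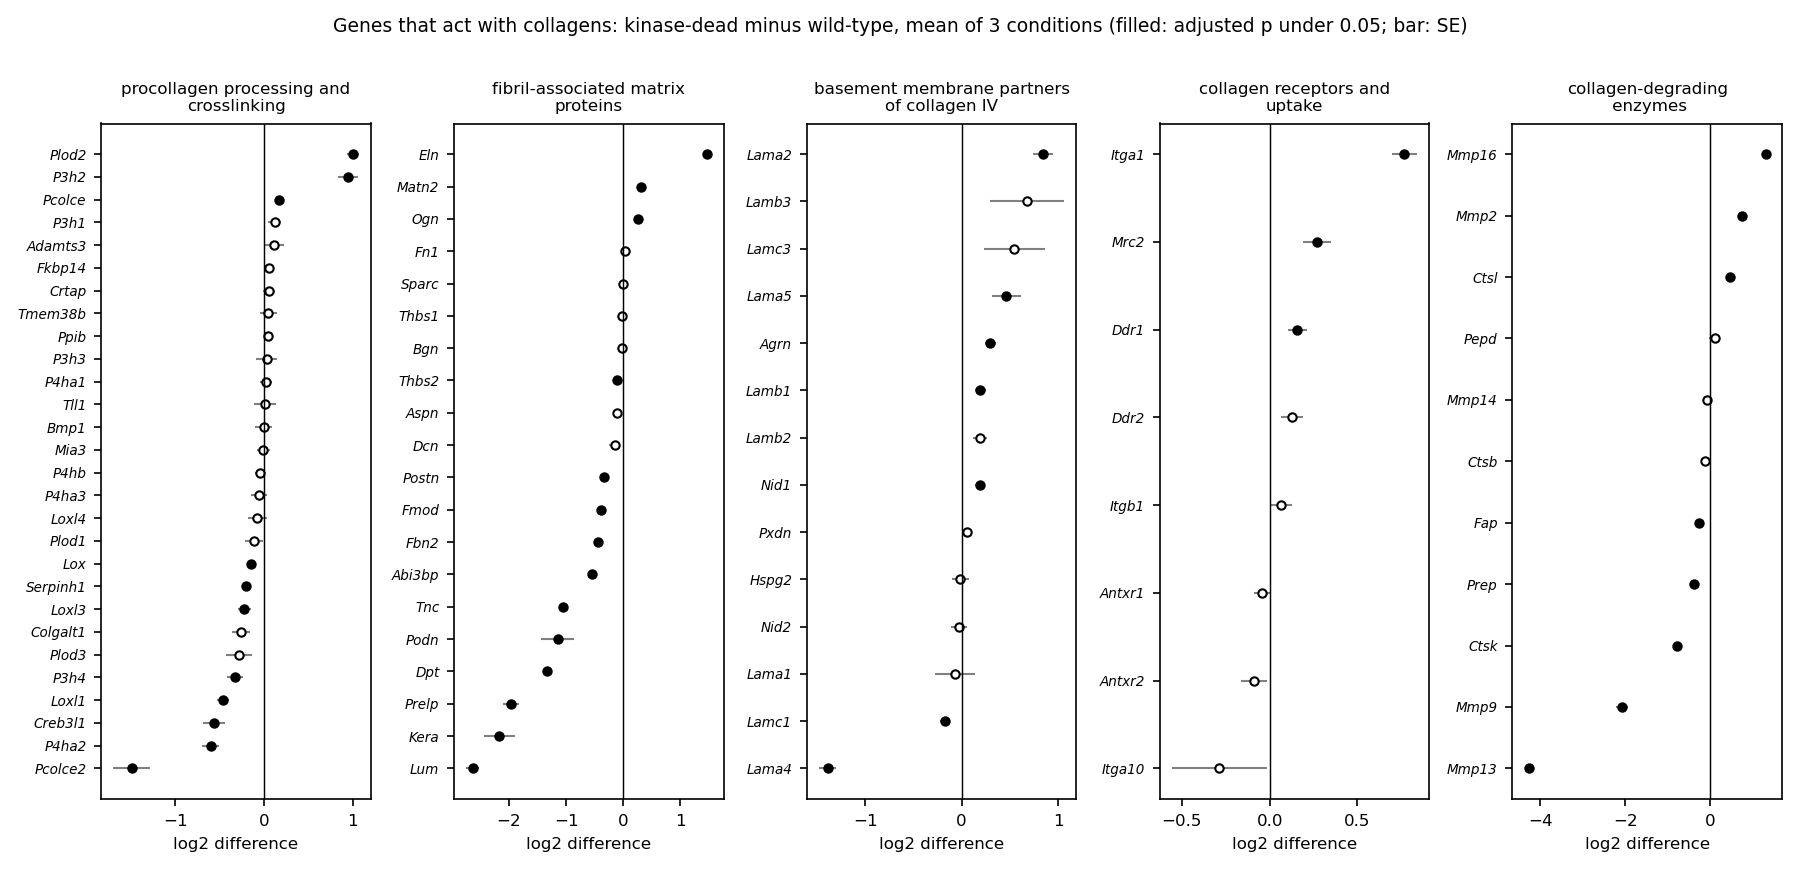
Log2 difference of (signal + 8) between kinase-dead and wild-type cells, mean of the 3 conditions (horizontal axis, scaled separately in each panel), for the tested genes of 5 lists of collagen partners; bars are SE and filled points have adjusted p under 0.05. The lists move both ways, from Mmp13 at -4.26 and Lum at -2.64 to Eln at 1.46 and Mmp16 at 1.31.

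Markers of cell types also differed by genotype, and their part in the collagen differences was not tested. The counts for each marker list stand beside the 31.8% of all genes called, 18.2% higher and 13.6% lower, and lists of so few genes are given as descriptions. Of 10 fibroblast markers 0 were higher and 5 lower in kinase-dead cells, with Pdgfra, the platelet-derived growth factor receptor of fibroblasts, at a median of 667 in wild-type and 147 in kinase-dead cells (-2.12 ± 0.08). The summed fibroblast marker signal overlapped between genotypes, within 17141 and 19767 on all arrays. This sum is carried by its brightest genes, such as Vim (medians of 6552 in wild-type and 6514 in kinase-dead cells) and Fn1 (5202 and 5160). It can therefore hide falls of dimmer markers such as Pdgfra.

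Of 8 tested macrophage markers 5 were higher and 0 lower, and the summed signal of the 10 on the array ran from 269.7 to 298.8 in wild-type and from 593.8 to 660.6 in kinase-dead cells. The higher markers were the lysozyme gene Lyz2, with a median of 106.6 in wild-type and 282.6 in kinase-dead cells, Fcer1g (49.7 and 93.35), Tyrobp (25 and 58.75), Ptprc (9.35 and 39.05) and Adgre1 (10 and 31.95). Ptprc and Adgre1 passed the filter only through kinase-dead arrays. The macrophage receptor Csf1r (26.8 and 36.35), Cd68 (24 and 27.55) and Mrc1 (8.2 and 20.1) were tested and not called, and Cd14 (10.35 and 21.5) and Cx3cr1 (6.7 and 12.6) did not reach the filter.

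Neural markers were higher in 3 of 6 tested genes and lower in 0, with summed signals of 225.9 to 374.8 in wild-type and 599.5 to 699.4 in kinase-dead cells. Fabp7 had the widest gap (medians of 34.4 and 251.95), and Sox2 (41.35 and 99.55) and Nes (146.5 and 205.2) were the other higher genes. Tubb3 (39.25 and 45.8), Gfap (21.85 and 16) and Pax6 (17.65 and 19.8) were not called. Dcx and Sox10 did not reach the filter. Endothelial markers, relevant to collagen IV, had summed signals of 54.6 to 131 and 95.9 to 135, and all 9 were at or below 33.3 on every array. Of the 3 tested, Emcn was higher (medians of 9.2 and 26.7), having passed only through kinase-dead arrays, and Kdr (4.3 and 15.1) and Cdh5 (17 and 16.3) were not called. Pecam1 (4.8 and 4.3) and the other 5 did not reach the filter. Cartilage markers, relevant to Col2a1 and Col9a1, had 1 of 7 tested genes higher and 2 lower, with summed signals of 494.7 to 954 and 458.2 to 678. Of 7 myofibroblast and smooth muscle markers 3 were higher and 0 lower (9377 to 11060 against 10596 to 11592), and of 4 tested bone markers 1 was higher and 0 lower (212.6 to 244.2 against 168.8 to 279.4). No skeletal muscle marker of 4 (108 to 207.5 against 115.4 to 168.7) and no epithelial marker of 5 (105.8 to 220.2 against 130.8 to 199.1) was called by limma.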

How the data were processed

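RNA of the 12 samples was amplified and labelled with NuGEN Ovation, per the labels' protocols, and hybridised to 1-colour arrays. The deposited values are linear MAS5 signal intensities, per the submitters' processing notes, with no version given. The text gives them as deposited, and the number of arrays limits their precision. Of 45101 deposited probe sets 64 controls were left out. GEO's platform annotation gave 1 symbol to 34945 of the rest, several to 932 and none to 9160, and 34754 matched RefSeq symbols. Tests used log2(signal + 8) in limma 3.58.1 (R 4.3.3): 6 group means over all 12 arrays (6 residual degrees of freedom), eBayes with trend, and Benjamini-Hochberg adjustment over 12456 genes (27086 probe sets where named). A gene needed a signal of 25.5, the median of all values, on 2 arrays. The script was tested on simulated data. The members and lists were chosen with earlier results of these data known. The text names each called collagen, the chains of collagens I, III, IV (first pair), V and VI, and up to 4 called genes per list with the largest change; others (Col7a1, Col11a1, Col15a1 and the like) were named after their values were seen. Same-numbered replicates were not treated as pairs. Alternatives were quantile normalization, median centring, a pseudocount of 32, no filter, no trend, all probe sets, only the compared groups, a replicate block, each array left out, and, added after seeing the data, the average without unstimulated arrays. Of the 42 members 33 had a RefSeq promoter entry. Promoter matches among them were 13 for CCAAT, 21 for the GC box, 1 for AP-1, 5 for TATA and 4 for NF-kB. Figures used matplotlib 3.10.9.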

Additional observations from a re-analysis of the deposited data

Results flagged for a closer look

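The response to IL-1b differed between the genotypes, by a test of the difference itself, for 1 of 33 tested collagens at 1 h, beside 0.49% of all genes, and for 4 of 81 tested genes of the partner lists at 4 h (4.94%), beside 3.03%. Col22a1 had a 1 h response higher by 2.36 in kinase-dead cells, at signals of 7.0 to 61.4 in its only probe set that passed the filter. At 4 h the response of Tll1, a procollagen-processing protease, was higher by 1.37 in kinase-dead cells, that of the matrix protein Thbs1 differed by -0.75, that of Mmp9 by -2.33 and that of Mmp13 by -2.08. Mmp9 and Mmp13 were called under each alternative fit tried, all of which reuse the same arrays. Mmp13 stayed at or below 23.5 on every kinase-dead array and was tested only through wild-type arrays. Its value is therefore given as a description. Tll1 lost its call without the second unstimulated wild-type, the first 4 h wild-type, the first unstimulated kinase-dead or the second 4 h kinase-dead array (adjusted p up to 0.0989), and with no filter (0.0570). Thbs1 lost its call without the first 4 h wild-type, the first unstimulated kinase-dead or the first 4 h kinase-dead array (adjusted p up to 0.0902), and without the trend (0.162).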

How the results depend on the processing

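Of 31 called collagen values refitted 635 times, 623 fits kept direction and call, 12 lost the call and 0 reversed. For 33 called values of partner genes, 601 of 679 fits kept both and 78 lost the call. Many of these fits could not change a value, such as those without the trend or without an array outside the comparison. For them the direction was fixed in advance, and all fits reuse the same 12 arrays. The values include Col9a1, which was tested only through kinase-dead arrays. The count of called collagens at 1 h in wild-type cells was 1, but 3 with quantile normalization and 3 with median centring. At 4 h it was 2, but 4 with quantile normalization, 1 with median centring and 1 with only the compared arrays. In kinase-dead cells it was 0, but 2 at 4 h with only the compared arrays, and 1 between the times with quantile normalization and 1 with only the compared arrays. For the difference of the 4 h responses it was 0, but 1 without the trend. Median centring moved the median of all genes at 1 h in wild-type cells from -0.06 to 0.10. Leaving out single arrays gave counts of 1 to 4 and 2 to 6 at 1 h and 4 h in wild-type cells, 2 to 2 between these times, 0 to 1, 0 to 2 and 0 to 1 for the same comparisons in kinase-dead cells, 8 to 12 and 15 to 17 for genotype in unstimulated cells and over the mean, and 0 to 1 and 0 to 2 for the differences of the 1 h and 4 h responses. The sign reversed for 3 values that were not called. Col1a1 by genotype was 0.0035 without the first unstimulated wild-type array, and Col1a2 was -0.0023 without the first 1 h wild-type array, and Col1a2 ran up to 0.0591 when single arrays were left out. The 1 h response difference of Col5a3 was -0.10 with median centring and -0.10, -0.05, -0.0059 and -0.06 without the first array of the unstimulated and 1 h wild-type and the unstimulated and 1 h kinase-dead groups, and ran up to 0.23 without another array. With the replicate number as a block, the count by genotype was 15 and no count of collagens changed. Residuals of same-numbered arrays correlated between -0.0509 and 0.099 over 15 pairs of groups (0 above 0.1), so the numbers were not used as pairs. The cause of these changes was not tested. Signals near the array median limit Col9a1, Col19a1, Col22a1, Col25a1 in wild-type cells and the 9 untested genes.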
